A study of Mus musculus with 16 samples.

Results

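Interferons are secreted alarm proteins. Type I interferon binds the receptor pair Ifnar1 and Ifnar2, the kinases Jak1 and Tyk2 then pass the signal on, and transcription factors bind a short DNA element in front of interferon-stimulated genes. In brain, such genes are known to be expressed at a basal level in blood vessels and to be induced in microglia with age and in mouse models of neurodegeneration. Described here are 9 of these genes out of 30389 genes in the count tables, chosen by symbol: Ifit1, Ifit3, Isg15, Irf7, Bst2, Oasl2, Rtp4, Ifi27l2a and Ifitm3. All 9 had a row in every table. Ifit1 binds foreign RNA and Ifit3 belongs to the same family. Isg15 is a small ubiquitin-like modifier, Irf7 is a transcription factor that amplifies interferon production, and Bst2 (tetherin) holds budding virions at the cell surface. Oasl2 belongs to the oligoadenylate synthetase family, Rtp4 is an interferon-induced RNA-binding protein, Ifi27l2a is a small interferon-induced membrane protein, and Ifitm3 blocks virus entry from endosomes.

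The data were Drop-seq counts, that is, unique molecular identifiers (UMIs, one per captured mRNA molecule) per gene and cell, from dissociated cortex of 17-month-old mice. THY-Tau22 mice express human 4-repeat tau with the G272V and P301S mutations from the Thy1.2 promoter, which is active in neurons, and those used were heterozygous, with wild-type (WT) littermates as controls, in a line kept by mating carrier males to C57Bl6/J females. The model is limited in that the promoter is meant to drive tau in neurons, not in vascular cells or microglia. Of the 16 mice, 1 library each, the labels put 4 in the WT male group, 4 in the THY-Tau22 male group, 3 in the WT female group and 5 in the THY-Tau22 female group, and the question addressed is whether these genes differ by genotype within each sex. The human transgene was not analysed here, so the genotype labels were not checked against it.

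Cells were barcodes with 200 to 7000 detected genes, 28530 of 48000. The 16 libraries held 1121 to 2526 cells, 755900 to 2089000 UMIs and a median of 429 to 736.5 UMIs per cell. Of barcodes, WT male replicate 3 and its counterpart THY-Tau22 male replicate 4 had 2952 of 3000 in common, against 3 to 12 for any other of the 120 pairs of tables. These are 1 library given under both genotypes and were left out of every genotype contrast, which leaves 14 libraries with 3 males of each genotype, and their table with more UMIs was kept once in descriptions over 15 distinct libraries (26635 cells). In THY-Tau22 male replicate 3, 28.8% of cells fell in clusters without a name, against 1.94% to 6.96% in the other libraries. The tag MB22 stands in the title of WT female replicate 3 and in that of THY-Tau22 female replicate 5, where the other 14 have MB21, and what the tag stands for is not given in the sources used here. One animal number appears both in the title of WT male replicate 1 and in that of THY-Tau22 female replicate 1. Cell classes were rebuilt here from 18 clusters and marker genes, and are called microglia-like and so on. The 9 genes were kept out of the genes used for clustering.

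The DNA element in front of interferon-stimulated genes contains paired GAAA repeats, so the 300 bases around each start site (250 before, 50 after, RefSeq on GRCm38.p6) were searched for GAAANNGAAA on either strand, overlapping matches included. A window was found for 7 of the 9 genes, all but Rtp4 and Ifi27l2a. The motif was present in 5 of the 7 windows (Ifit1, Ifit3, Isg15, Bst2 and Ifitm3), in 36 of 101 windows of an interferon pathway list (35.6%) and in 1131 of all 32851 windows (3.44%). The letters are not in the windows of Irf7 and Oasl2. The 250 bases upstream of 3 genes with different patterns across cell classes and genotypes are printed below 5′ to 3′ on the gene's strand, with the motif matches of either strand in capitals: Isg15 and Ifit1 had their highest levels in vascular classes, and Bst2 in macrophage-like cells.
Isg15 (chr4:156200819-156201068, minus strand): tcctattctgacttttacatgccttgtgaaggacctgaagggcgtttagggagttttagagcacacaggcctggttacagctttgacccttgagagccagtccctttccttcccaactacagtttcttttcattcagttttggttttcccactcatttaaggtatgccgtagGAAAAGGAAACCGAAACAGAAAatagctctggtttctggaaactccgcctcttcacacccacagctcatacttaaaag
Ifit1 (chr19:34640639-34640888, plus strand): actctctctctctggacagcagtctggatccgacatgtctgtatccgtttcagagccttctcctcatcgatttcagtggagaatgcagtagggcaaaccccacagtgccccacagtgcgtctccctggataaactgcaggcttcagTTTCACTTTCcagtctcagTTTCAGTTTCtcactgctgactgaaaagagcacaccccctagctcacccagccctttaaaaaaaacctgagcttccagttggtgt
Bst2 (chr8:71537473-71537722, minus strand): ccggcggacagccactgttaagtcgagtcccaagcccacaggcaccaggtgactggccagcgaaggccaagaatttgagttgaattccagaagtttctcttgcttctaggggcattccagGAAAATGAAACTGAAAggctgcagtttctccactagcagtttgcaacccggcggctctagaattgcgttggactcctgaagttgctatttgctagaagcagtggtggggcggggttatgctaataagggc

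Counted from the start site, the matches of Isg15 began at -78, -72 and -66 and overlapped, those of Ifit1 began at -104 and -85 on the opposite strand, and those of Bst2 began at -130 and -124 and overlapped. Ifit3, a neighbour of Ifit1 on chromosome 19, carried the opposite-strand matches at -156 and -122. In Ifitm3 the matches lay just after the start site, at bases 2 and 19, and that stretch is shown alone because it is the only one of the 5 on the transcribed side.
Ifitm3 (chr7:141010716-141010742, minus strand): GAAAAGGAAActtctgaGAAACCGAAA

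Drop-seq reads the 3′ end of a transcript, so near-identical 3′ ends can share reads. In mm10, where Ifit3 lies at chr19:34583531-34588731, 12.9% of the 60-base windows in the last 500 bases of its transcript were also in Ifit3b. For Ifitm3 (chr7:141009586-141010770) the share was 7.71%, with Ifitm1, Ifitm2 and 3 predicted genes. It was 0.0% for the other 7. Counts of Ifit3 and Ifitm3 are uncertain to that extent.

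Across cell classes, the 9 genes were counted mainly in cells of blood vessels. Endothelial-like cells were 13.7% of cells and gave 13.4% of all UMIs, but 44.7% of the UMIs of the 9 genes together. Mural-like cells (pericytes and smooth muscle) gave another 20.6%, from 3.54% of cells. Microglia-like cells, the most frequent class at 27.8% of cells, gave 13.6%. Levels below are UMIs summed per library and class and scaled to the total of that sum (CPM), as mean ± SD over libraries with 10 or more cells of the class, and differences between classes are given without a test.

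**Figure D1:**
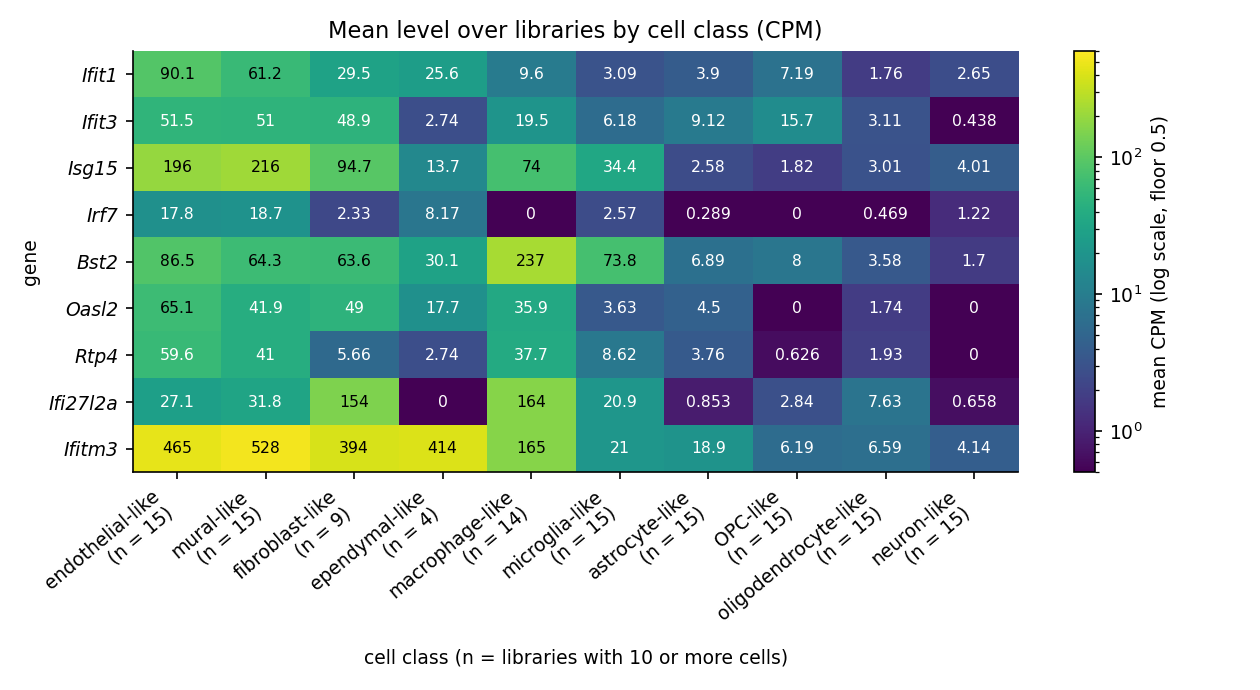
Mean CPM of each of the 9 genes (rows) in each marker-defined cell class (columns) over libraries with 10 or more cells of that class, on a log colour scale with values under 0.5 drawn at 0.5. The vascular columns (endothelial- and mural-like) are bright for most genes, and the fibroblast-like column for several but not for Irf7 or Rtp4. Macrophage-like cells are bright for Bst2, Ifi27l2a and Ifitm3, and neuron-like and oligodendrocyte-like cells are dark throughout.

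Ifitm3 was at 465 ± 223 CPM in endothelial-like cells and 528 ± 270 CPM in mural-like cells (n = 15 libraries each). Mural-like cells were above endothelial-like cells in 10 of 15 libraries, so the order of the pair lies within the spread between libraries. Fibroblast-like cells followed at 394 ± 235 CPM (n = 9) and ependymal-like cells stood at 414 ± 211 CPM (n = 4). An Ifitm3 UMI was seen in 21.0% of endothelial-like and 28.5% of mural-like cells. In neuron-like cells, used as the background of free RNA, the share was 0.371% at a deeper median of 711 UMIs per cell against 537 in endothelial-like cells.

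Isg15 also had its highest means in the vessel classes. It stood at 216 ± 100 CPM in mural-like and 196 ± 76.8 CPM in endothelial-like cells, with mural-like cells above in 7 of 15 libraries. Microglia-like cells had 34.4 ± 14.4 CPM of Isg15 with no library at 0, and astrocyte-, oligodendrocyte-, OPC- (oligodendrocyte precursor) and neuron-like cells had means of 1.82 to 4.01 CPM. Isg15 was thus counted above the neuron-like background in microglia-like cells too: 1.66% of them had a UMI, against 0.445% of neuron-like cells.

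Ifit1 was highest in endothelial-like cells, at 90.1 ± 29.0 CPM against 61.2 ± 42.2 CPM in mural-like cells, and endothelial-like cells were above in 13 of 15 libraries. Of the 404 Ifit1 UMIs, 60.6% came from endothelial-like cells and 3.71% from microglia-like cells, where its share of cells with a UMI (0.189%) was below that of neuron-like cells (0.371%). Microglia-like Ifit1 therefore did not exceed background. Ifit3 was spread more evenly over the vessel classes and fibroblast-like cells, with 51.5 ± 26.6 CPM in endothelial-like, 51.0 ± 44.9 CPM in mural-like and 48.9 ± 43.6 CPM in fibroblast-like cells (n = 9). It was also counted in OPC-like cells, at 15.7 ± 19.1 CPM from 16 UMIs, with 7 of 15 libraries at 0.

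Oasl2 and Rtp4 also had their highest means in endothelial-like cells. Oasl2 was at 65.1 ± 29.6 CPM there, at 49.0 ± 44.1 CPM in fibroblast-like and at 41.9 ± 27.0 CPM in mural-like cells. Rtp4 was at 59.6 ± 35.5 CPM in endothelial-like and 41.0 ± 31.7 CPM in mural-like cells, above in 10 of 15 libraries. Neither gene had a UMI in 1347 neuron-like cells, which allows a share of cells with a UMI of up to 0.223%.

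Irf7 was sparse. Its 94 UMIs gave 17.8 ± 13.3 CPM in endothelial-like and 18.7 ± 13.2 CPM in mural-like cells, 10.9 CPM in the clusters without a name, and no more than 8.17 CPM in any other named class. No UMI was found in 345 macrophage-like cells, which allows a share of up to 0.87%, nor in 1230 OPC-like cells, which allows up to 0.244%.

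Bst2 and Ifi27l2a differed from the other genes in that their largest single source of UMIs was microglia-like cells, with 41.8% and 25.2%. Bst2 was highest in macrophage-like cells, at 237 ± 186 CPM (n = 14), followed by endothelial-like cells at 86.5 CPM (25.5 to 198 CPM over libraries) and microglia-like cells at 73.8 ± 28.6 CPM (n = 15 each). Macrophage-like cells were above endothelial-like cells in 12 of 14 libraries, while endothelial-like were above microglia-like cells in 8 of 15, which gives no order to that pair. Endothelial-like cells gave 25.7% of the Bst2 UMIs. A Bst2 UMI was found in 4.08% of microglia-like cells (median 510 UMIs) against 0.223% of neuron-like cells.

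Ifi27l2a reached 164 ± 147 CPM in macrophage-like cells and 154 ± 199 CPM in fibroblast-like cells (16.2% of its UMIs), against 27.1 ± 28.4 CPM in endothelial-like and 20.9 ± 16.8 CPM in microglia-like cells. Some of this rested on single cells: 30 of the 58 fibroblast-like UMIs were in 1 cell, and 32 of the 58 were from THY-Tau22 male replicate 3. The macrophage-like class is small, with 8 to 44 cells in a library, so 1 UMI there is worth 24.6 to 184 CPM.

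Within the microglia-like class, cluster 0 was led by Cd83, Ccl4, Il1a and Ccl3, genes of cytokines and of microglial activation, and cluster 4 by P2ry12 and P2ry13. Isg15 stood at 35.2 CPM in cluster 0 (131 UMIs) and 22.8 CPM in cluster 4 (19 UMIs), and Ifi27l2a at 21.5 CPM (80 UMIs) and 12.0 CPM (10 UMIs). Bst2 was at 72.0 and 83.9 CPM and Oasl2 at 2.42 and 8.39 CPM. These are sums over the 15 libraries, described without a test.

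Some cells held UMIs of several of the genes. Of 26635 cells, 252 (0.946%, exact binomial 95% interval 0.833% to 1.07%, which covers counting error only) held a UMI of 3 or more of the 9 genes. The share was 3.30% of endothelial-like cells (120 of 3640), 8.17% of mural-like cells (77 of 942), 0.283% of microglia-like cells (21 of 7408) and 0.0742% of neuron-like cells (1 of 1347). Depth sets much of these shares. Among cells with 300 or more UMIs, each thinned to 300, they were 0.401% of endothelial-like, 0.43% of mural-like and 0.0426% of microglia-like cells. Cells with fewer UMIs were left out of the thinned shares. Several pairs of genes met more often than the product of their shares of cells gives. In endothelial-like cells, Ifit1 and Ifit3 were both seen in 24 cells against 6.09 by the product, and Ifit3 and Rtp4 in 14 against 3.61. Not all pairs did so: there Irf7 and Ifitm3 met in 10 cells against 9.26, and Irf7 and Rtp4 in 1 against 1.51. In microglia-like cells Bst2 and Ifitm3 were both seen in 18 cells against 3.38, and Bst2 and Ifi27l2a in 16 against 2.89. Cells with more UMIs hold more of any gene, and the part of depth in these pairs was not tested.

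At least 1 of the 9 genes was seen in 38.9% of endothelial-like, 7.87% of microglia-like and 1.56% of neuron-like cells. In endothelial-like cells this share was 28.7% for the WT and 49.4% for the THY-Tau22 libraries of males, and 41.9% for the WT and 40.2% for the THY-Tau22 libraries of females, at medians of 531 to 536 UMIs per cell. Among cells with 300 or more UMIs, each thinned to 300, the shares were 15.5%, 29.6%, 27.5% and 23.4%. These shares pool cells of unequal libraries. By library, the WT males lay between 23.2% and 31.0% and the THY-Tau22 males between 43.8% and 54.0%, so the male groups were apart. WT female replicate 3 was at 32.1%, where WT female replicates 1 and 2 were at 47.2% and 52.4%, in the range of the THY-Tau22 males, and the THY-Tau22 females ran from 33.6% to 52.0%.

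The genotype contrasts used UMIs summed per library over all cells and over each of 6 classes, fitted with edgeR over all genes of the level. The rule for a call was an absolute log2 fold change of 0.5 or more together with a p under 0.05 after Benjamini-Hochberg adjustment. Over all cells, 8 of the 9 genes passed the filter on low counts (all but Irf7). In endothelial-like cells 7 passed (not Irf7 or Ifi27l2a), in microglia-like cells 3 (Isg15, Bst2 and Ifitm3), in astrocyte-like cells only Ifitm3, and in oligodendrocyte-, neuron- and OPC-like cells none. None of the 9 genes was called in males, in females, in both sexes together or in the interaction (the male minus the female difference). Few genes of any kind were: 0.0% of the 11643 genes tested over all cells and 0.0% of the 3317 tested in endothelial-like cells in each of the 4 contrasts, and in microglia-like cells 0.606% of 5117 genes in males, 0.0195% in both sexes and 0.0% in females and in the interaction.

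In males, most of the 9 genes stood higher in THY-Tau22 than in WT libraries, without passing the adjusted threshold. At an unadjusted p under 0.05, 6 of 8 genes over all cells were higher in THY-Tau22 males, where 9.04% of all genes were. In endothelial-like cells 5 of 7 were, with 9.04% of all genes there, and in microglia-like cells 2 of 3, with 9.83%. The median log2 fold change over the 8 genes was 1.03 over all cells, against 0.01 over all genes tested. By raw levels, every THY-Tau22 male library lay above every WT male library for 6 of 8 genes over all cells (22.4% of all genes), for 5 of 7 in endothelial-like cells (18.8%) and for 3 of 3 in microglia-like cells (15.9%).

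Ifi27l2a had the largest difference among the 9 genes over all cells. It stood at 6.22, 3.58 and 5.69 CPM in the WT males (replicates 1, 2 and 4) and at 46.8, 30.8 and 41.1 CPM in the THY-Tau22 males (replicates 1 to 3). All 3 THY-Tau22 libraries lay far above the 3 WT libraries, with a log2 fold change of 2.68 ± 0.60 (SE) and an edgeR adjusted p of 0.196. These male values rest on 4 to 60 UMIs a library, and in 1 library as many as 30 UMIs came from a single fibroblast-like cell. In endothelial-like cells, where Ifi27l2a did not pass the filter, it was at 9.55, 6.51 and 0.0 CPM in WT males and at 70.8, 23.1 and 15.3 CPM in THY-Tau22 males, from 4 and 16 UMIs in all.

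Bst2 over all cells was at 27.3, 29.6 and 12.5 CPM in WT males and at 63.9, 51.8 and 73.3 CPM in THY-Tau22 males. The groups did not overlap, and the log2 fold change was 1.21 ± 0.34 (edgeR adjusted p = 0.226). In endothelial-like cells Bst2 was at 25.5, 45.6 and 28.4 CPM against 120, 98.1 and 99.1 CPM, and the difference was 1.54 ± 0.44 on the log2 scale (edgeR adjusted p = 0.153). Microglia-like Bst2 was at 55.0, 62.7 and 28.0 CPM against 105, 104 and 120 CPM, a difference of 1.02 ± 0.34 (edgeR adjusted p = 0.13). The male groups were thus apart in all 3 sets of cells.

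Ifitm3 over all cells was at 74.2, 80.7 and 56.9 CPM in WT males and at 142, 145 and 178 CPM in THY-Tau22 males (log2 fold change 0.94 ± 0.37, edgeR adjusted p = 0.273). In endothelial-like cells, the main source of the transcript, the levels were 181, 319 and 241 CPM against 651, 542 and 671 CPM (log2 fold change 1.19 ± 0.37, edgeR adjusted p = 0.185). The lowest THY-Tau22 male exceeded the highest WT male in both. Over all cells, 1 cell gave up to 13.8% of the Ifitm3 UMIs of a library, up to 13.1% for Bst2 and up to 23.5% for Isg15. In microglia-like cells 0 to 5 UMIs per WT male library and 6 to 10 per THY-Tau22 male library gave a log2 fold change of 1.63 ± 0.80 (edgeR adjusted p = 0.291).

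Oasl2 over all cells was at 10.5, 8.07 and 6.83 CPM in WT males and at 18.1, 23.5 and 22.6 CPM in THY-Tau22 males, and in endothelial-like cells at 38.2, 45.6 and 14.2 CPM against 99.1, 92.3 and 99.1 CPM. Both pairs of groups were apart, with log2 fold changes of 1.09 ± 0.34 (edgeR adjusted p = 0.234) and 1.32 ± 0.45 (0.202). Ifit3 over all cells was at 12.9, 7.17 and 14.8 CPM against 26.7, 23.5 and 28.8 CPM, and in endothelial-like cells at 41.4, 13.0 and 21.3 CPM against 120, 63.4 and 68.6 CPM. Its groups were also apart, with log2 fold changes of 0.98 ± 0.33 (edgeR adjusted p = 0.24) and 1.37 ± 0.49 (0.215).

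Rtp4 over all cells was at 8.14, 5.38 and 10.2 CPM in WT males and at 17.2, 25.9 and 13.7 CPM in THY-Tau22 males (log2 fold change 1.07 ± 0.45, edgeR adjusted p = 0.284), while in endothelial-like cells its groups overlapped. Isg15 overlapped over all cells, at 50.3, 36.7 and 23.9 CPM against 76.3, 76.1 and 46.6 CPM (log2 fold change 0.62 ± 0.31, edgeR adjusted p = 0.347). It did not overlap in endothelial-like cells (159, 137 and 56.8 against 340, 271 and 168 CPM) or in microglia-like cells (11.0, 15.7 and 18.7 against 48.4, 38.0 and 23.3 CPM), where the log2 fold changes were 0.92 ± 0.36 (edgeR adjusted p = 0.236) and 1.21 ± 0.50 (0.211).

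Ifit1 did not share this pattern. In endothelial-like cells, where most of its UMIs lay, it was at 89.1, 111 and 92.3 CPM in WT males and at 149, 86.5 and 68.6 CPM in THY-Tau22 males, a log2 fold change of -0.10 ± 0.41 (edgeR adjusted p = 0.933). The groups overlapped, as they did over all cells (log2 fold change -0.33 ± 0.43, edgeR adjusted p = 0.733). Irf7, which did not pass the filter, was at 2.87, 3.58 and 2.28 CPM in WT males and at 5.72, 2.43 and 8.23 CPM in THY-Tau22 males over all cells, from 2 to 12 UMIs a library, and its groups overlapped. The members that did not pass the filter in microglia-like cells had few UMIs: Ifi27l2a had 7 over the 3 WT males and 29 over the 3 THY-Tau22 males, Rtp4 2 and 10, and Ifit3 1 and 11, with the male groups apart in CPM for these 3 genes and overlapping for Ifit1, Irf7 and Oasl2. These counts were given no test. No share of genes apart is given for genes that did not pass the filter, so groups being apart at such counts says little. Astrocyte-like Ifitm3 had a log2 fold change of 0.90 ± 0.88 in males (edgeR adjusted p = 0.612).

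**Figure D2:**
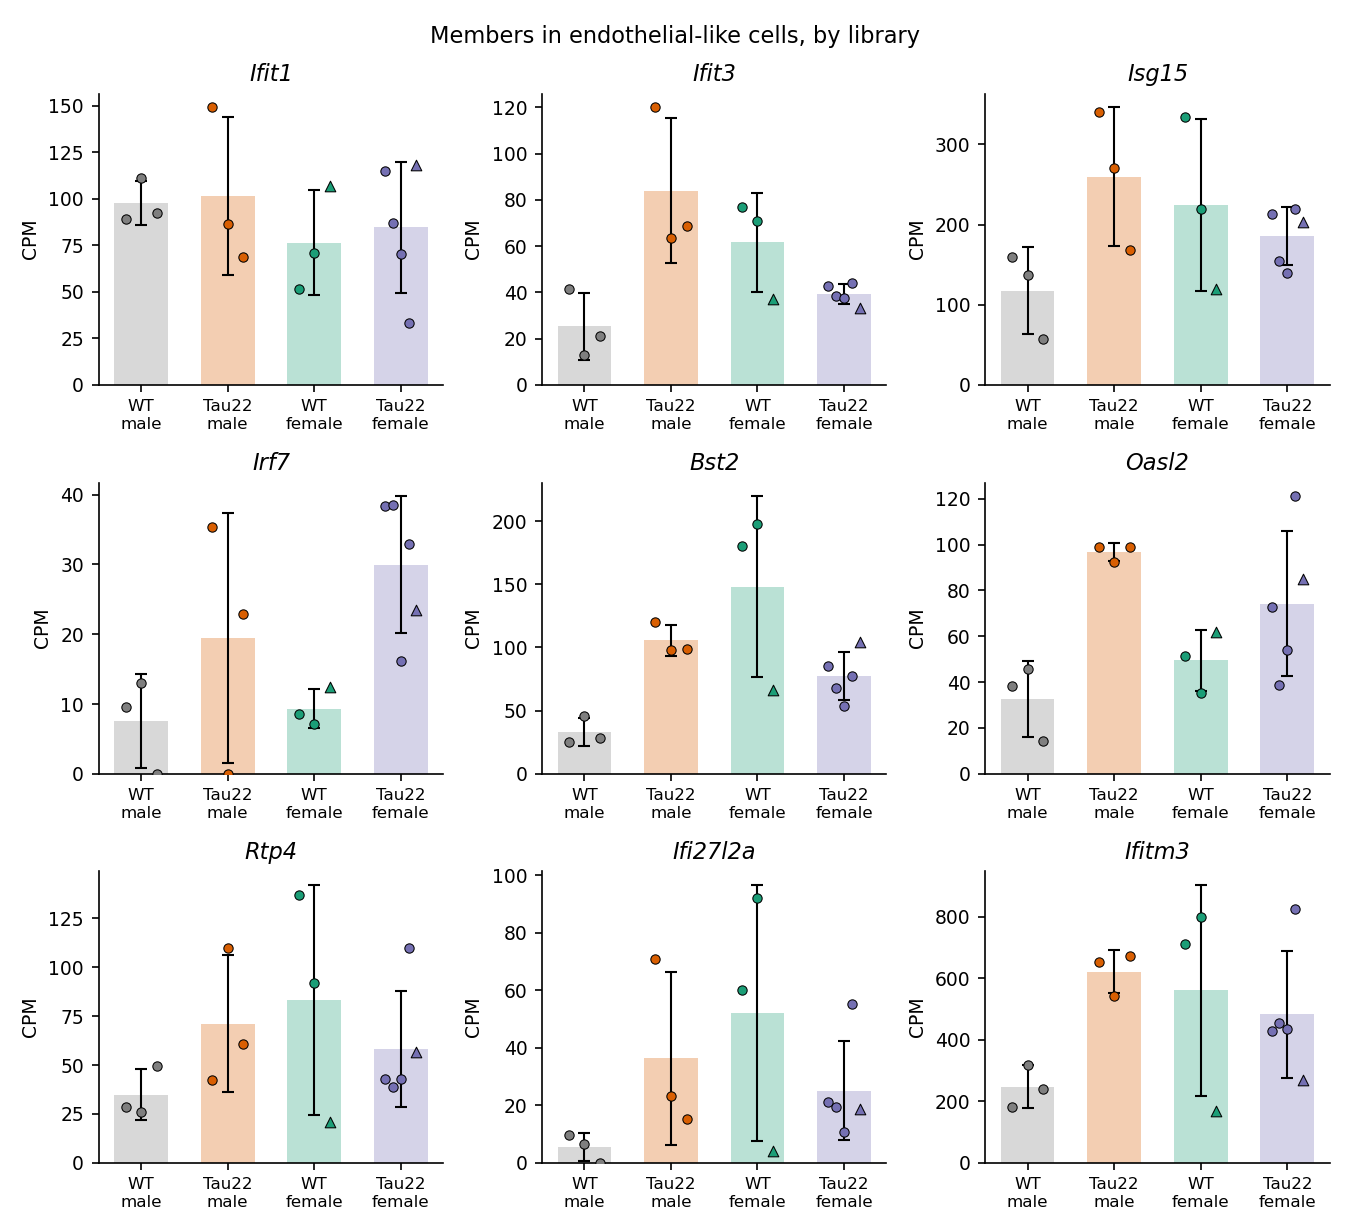
CPM of the genes in endothelial-like cells of each of the 14 libraries, 1 panel a gene, by genotype and sex. Points are libraries, triangles are MB22-titled libraries, bars are group means and error bars are 1 SD. For Bst2, Ifi27l2a, Ifit3, Ifitm3, Isg15 and Oasl2 the 3 THY-Tau22 males lie above the 3 WT males, while the female groups overlap for all but Irf7.

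**Figure D3:**
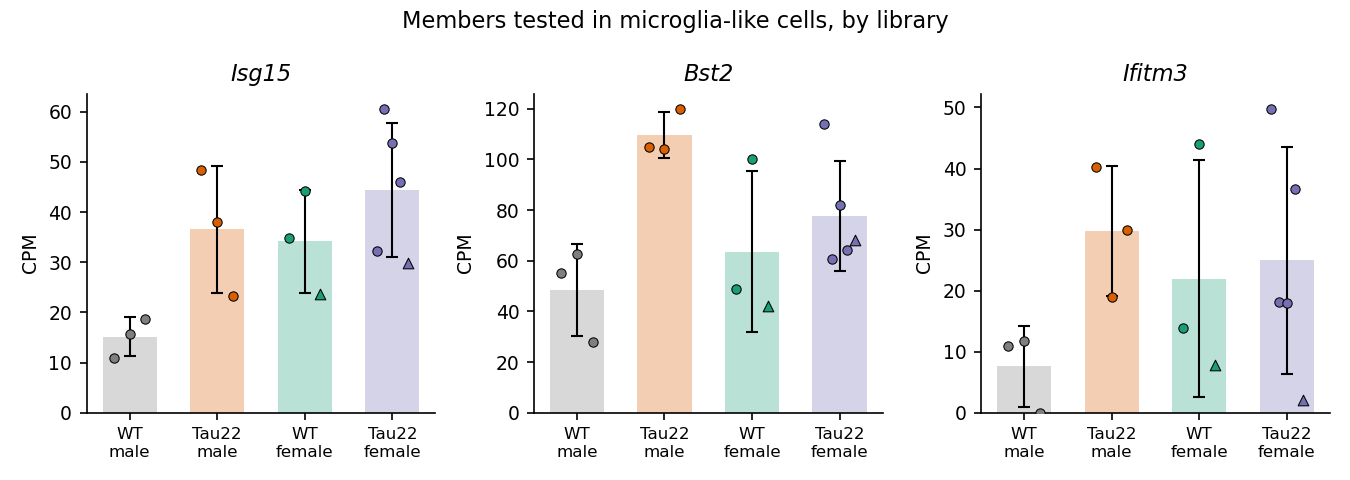
CPM of Isg15, Bst2 and Ifitm3 in microglia-like cells of each of the 14 libraries by genotype and sex, drawn as in the endothelial-like plot. The THY-Tau22 males lie above the WT males for each gene, for Bst2 at 104 to 120 against 28.0 to 62.7 CPM, and the female groups overlap.

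In females the median log2 fold change was -0.20 for the 8 genes over all cells, against -0.01 for all genes tested. No gene of the 9 that passed the filter had every THY-Tau22 library above every WT library, but few genes of any kind did: 0.679% over all cells, 1.09% in endothelial-like and 1.11% in microglia-like cells, so a count of 0 says little with 3 and 5 libraries. Ifit3 went the other way over all cells: it was at 23.8, 27.2 and 17.1 CPM in WT females and at 15.0, 8.08, 16.8, 9.26 and 9.23 CPM in THY-Tau22 females. Every WT female lay above every THY-Tau22 female, by a narrow margin for WT female replicate 3 (0.507% of all genes were apart in that direction), with a log2 fold change of -0.87 ± 0.30 (edgeR adjusted p = 1.0). It was the only 1 of the 8 genes lower at an unadjusted p under 0.05, where 1.11% of all genes were, and the other 7 had log2 fold changes between -0.51 and 0.24.

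Endothelial-like Bst2 was likewise the only 1 of 7 genes lower in THY-Tau22 females at an unadjusted p under 0.05 (1.63% of all genes there). It was at 180, 198 and 66.1 CPM in WT females and at 85.4, 67.6, 53.9, 77.1 and 104 CPM in THY-Tau22 females, a log2 fold change of -0.78 ± 0.34 (edgeR adjusted p = 0.996). WT female replicates 1 and 2 stood far above all THY-Tau22 females, and WT female replicate 3 below 4 of them, so the groups overlapped. In microglia-like cells the female log2 fold changes of Isg15, Bst2 and Ifitm3 were 0.37 ± 0.40, 0.34 ± 0.32 and 0.17 ± 0.66 (edgeR adjusted p = 0.999 for each).

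Irf7 in endothelial-like cells, which did not pass the filter and has neither a test nor a share over all genes beside it, was the exception among the 9 genes. It was at 8.57, 7.08 and 12.4 CPM in WT females (5 UMIs in all) and at 38.4, 38.6, 16.2, 33.0 and 23.5 CPM in THY-Tau22 females (24 UMIs in all), so the female groups were apart, while the male groups overlapped there at 9.55, 13.0 and 0.0 CPM against 35.4, 0.0 and 22.9 CPM.

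WT female replicate 3 stood apart from the other WT females for most of the 9 genes. Summed over the 9 genes and all cells, it was at 175 CPM, where WT female replicates 1 and 2 were at 467 and 478 CPM, and THY-Tau22 female replicate 5, the other MB22-titled library, was at 213 CPM, where the 4 MB21-titled THY-Tau22 females were at 226 to 393 CPM. Both MB22 libraries are females and there is 1 of each genotype, so no genotype difference with an error can be had among them, and the MB21-titled females alone are the other within-tag value.

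The difference between the sexes in the genotype effect did not pass the adjusted threshold either in the fit of 14 libraries. In the interaction, 5 of 8 genes over all cells (8.34% of all genes) and 4 of 7 in endothelial-like cells (8.47%) were higher, that is, more positive in males, at an unadjusted p under 0.05. The largest endothelial-like value among the 7 genes tested was that of Bst2, 2.32 ± 0.56 (edgeR adjusted p = 0.11), and over all cells Ifi27l2a had 2.53 ± 0.79, Ifit3 1.85 ± 0.44, Rtp4 1.58 ± 0.59 and Bst2 1.40 ± 0.45 (edgeR adjusted p = 0.291, 0.291, 0.305 and 0.291). With both sexes averaged over all cells, Ifi27l2a had 1.42 ± 0.40, Oasl2 0.66 ± 0.23 and Bst2 0.51 ± 0.22, and the other 5 genes lay between -0.27 and 0.32 (edgeR adjusted p of 0.946 or more for all 8).

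**Figure D4:**
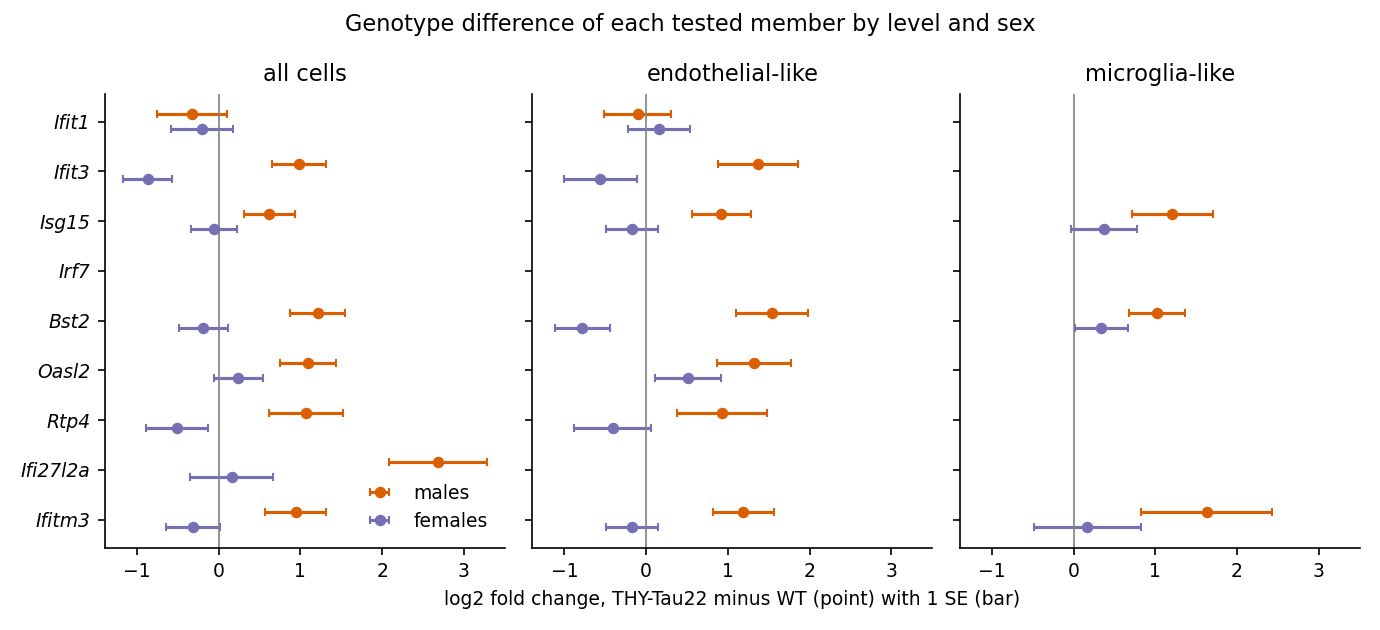
Log2 fold change of THY-Tau22 minus WT (points) with 1 standard error (bars) for males and females, over all cells and in endothelial-like and microglia-like cells; a gene without a point did not pass the filter on low counts there. Male values lie to the right of 0 for 7 of 8 genes over all cells and Ifit1 lies to the left, while female values scatter around 0.

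The absence of calls depended on the filter and on 1 library. With no filter on low counts and all 14 libraries, Ifi27l2a (edgeR adjusted p = 1.06e-07), Bst2 (0.0135) and Ifitm3 (0.0471) were called in males over all cells, where 1.03% of all genes were called. WT female replicate 3 is in neither male group, but all 4 groups were fitted together and share the filter, the scaling and the estimate of spread. Which of these moved the male calls was not tested. Without WT female replicate 3 and with the filter, Ifi27l2a was called in males over all cells (2.68 ± 0.46, edgeR adjusted p = 0.014), where 0.594% of all genes were called. Bst2 (1.53 ± 0.41, 0.0478) and Ifitm3 (1.18 ± 0.28, 0.0277) were called in endothelial-like cells, where 1.27% were. The interaction was then called for Bst2, Ifi27l2a, Ifit3, Ifitm3 and Rtp4 over all cells, where 9.56% of genes were called, and for Bst2, Ifi27l2a and Ifitm3 in endothelial-like cells, where 8.04% were. With both MB22-titled libraries left out, an alternative chosen after the data had been seen, the same 3 calls in males and the same 8 in the interaction were made and none in females. The background was then 0.748% over all cells and 1.63% in endothelial-like cells for males, and 6.04% and 4.85% for the interaction. Those MB21-titled libraries hold only 2 WT females. Among them, the endothelial-like interaction was 1.62 ± 0.38 for Ifitm3 (edgeR adjusted p = 0.01) and 2.82 ± 0.55 for Bst2 (edgeR adjusted p = 0.00284). Both sexes entered these values. The male log2 fold changes were 1.18 ± 0.27 and 1.53 ± 0.41, and the female ones -0.44 ± 0.27 and -1.29 ± 0.37 (edgeR adjusted p = 0.623 and 0.339).

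Other features of the libraries also differed between the male groups. Messenger RNA encoded by mitochondria took 0.476% to 0.724% of UMIs in WT males and 1.08% to 1.55% in THY-Tau22 males, and ribosomal protein mRNA took 0.984% to 1.21% and 1.65% to 2.08%. Both were lowest among WT females in replicate 3 (0.54% and 0.923%, against up to 1.41% and 2.48% in the other 2). The THY-Tau22 females, at 0.77% to 1.09% mitochondrial mRNA, followed less closely. Their replicates 1 and 2 had 0.772% and 0.77%, but 367 and 226 CPM of the 9 genes over all cells. The summed level of the 9 genes was also apart in males, at 155 to 215 CPM in WT males and 394 to 428 CPM in THY-Tau22 males over all cells, 504 to 716 and 1270 to 1630 CPM in endothelial-like cells, and 65.3 to 106 and 227 to 262 CPM in microglia-like cells. The part of these library-wide features in the differences of the 9 genes was not tested.

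**Figure D5:**
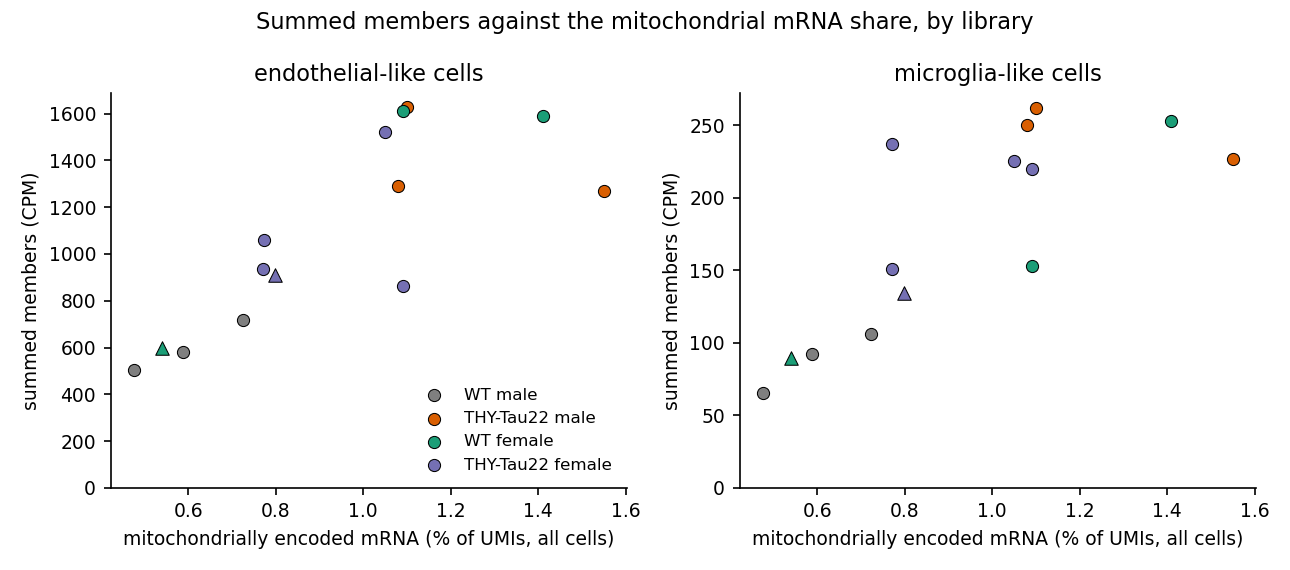
Summed CPM of the 9 genes against mitochondrially encoded mRNA in percent of UMIs, 1 point a library (14 libraries, triangles MB22-titled), coloured by group, with the sum taken in endothelial-like cells (left) and microglia-like cells (right). In endothelial-like cells the WT males and WT female replicate 3 lie at the lower left (504 to 716 CPM) and the THY-Tau22 males with WT female replicates 1 and 2 at the upper right (1270 to 1630 CPM). The THY-Tau22 females lie at 862 to 1520 CPM and 0.77% to 1.09%.

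The mix of cells also differed between male groups. Macrophage-like cells were 0.77% to 0.889% of cells in WT males and 1.65% to 2.70% in THY-Tau22 males, and endothelial-like cells 14.0% to 15.7% and 9.19% to 13.1%. The 9.19% was THY-Tau22 male replicate 3, where 28.8% of cells fell in clusters without a name, which lowers the share of named classes. THY-Tau22 male replicates 1 and 2 were at 13.1% and 13.0%. Over all cells, 7 of 7 macrophage markers had UMIs, with a summed level of 41.2 to 93.2 CPM in WT males and 100 to 166 CPM in THY-Tau22 males. Of 8 T or NK cell markers, 6 had UMIs in WT males (Cd3e and Cd3g were at 0) and 7 in THY-Tau22 males (Cd8a was at 0), with summed levels of 3.42 to 7.18 and 17.2 to 28.1 CPM. The 9 microglia markers summed to 4000 to 4940 CPM in WT males and 5010 to 5650 CPM in THY-Tau22 males. The part of these cells in the all-cell values was not tested. Within endothelial-like cells the macrophage markers summed to 0.0 to 21.3 CPM in WT males, with 5 of 7 at 0, and to 7.08 to 30.5 CPM in THY-Tau22 males, with Lyve1 and Cbr2 at 0. Within microglia-like cells they summed to 4.66 to 23.5 and 9.49 to 33.3 CPM, so both pairs of groups overlapped. The male groups were apart for T or NK markers in endothelial-like cells (0 of 8 with a UMI in WT males, 3 of 8 in THY-Tau22 males at a sum of 7.08 to 11.5 CPM). In these THY-Tau22 male libraries 1 UMI was worth 5.77 to 7.63 CPM, so the sums lie at the floor of counting. The part of T or NK cells in the values of this class was not tested. Endothelial markers in endothelial-like cells summed to 14500 to 17400 CPM in WT males and 17500 to 21900 CPM in THY-Tau22 males.

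The rest of the pathway was followed with a list of 111 genes in 7 roles, 98 of which had a row. None was called at any level or contrast. Over all cells in males, 76 were tested, 7 were higher and 1 lower in THY-Tau22 at an unadjusted p under 0.05, where 9.04% of all genes were higher and 6.36% lower, so the share of the list was near that of all genes. Its median log2 fold change was 0.18. In endothelial-like cells 5 of 39 were higher (9.04% of all genes) and 0 lower, with a median of 0.28, and in microglia-like cells 4 of 52 were higher (9.83%) and 0 lower, with a median of 0.12. In females over all cells 1 was higher (0.636% of all genes) and 2 lower (1.11%), with a median of -0.03.

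By role, the ligands were nearly absent: Ifnb1 had 23 UMIs and Ifng 19 over all cells of the 15 distinct libraries, and neither was tested. The receptors Ifngr1, Ifnar2 and Ifnar1 had log2 fold changes of 0.06 ± 0.23, 0.10 ± 0.25 and 0.31 ± 0.25 in males over all cells. The signal carriers Jak1, Jak2 and Irf9 had -0.17 ± 0.21, 0.22 ± 0.31 and 0.20 ± 0.29. The sensors and inducers Irf8, Ifih1 and Irf1 had 0.01 ± 0.24, -0.14 ± 0.26 and 0.10 ± 0.22. The edgeR adjusted p of these upstream genes lay between 0.557 and 0.986.

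Among the brakes, Socs3, which damps Jak signalling, had 0.64 ± 0.27 in males (edgeR adjusted p = 0.288) and -0.34 ± 0.25 in females, while Ptpn6 and Samhd1 had 0.08 ± 0.28 and -0.23 ± 0.26 in males. Among other antiviral effectors, Slfn5, at 770 ± 179 CPM in endothelial-like cells (n = 15), had -0.62 ± 0.28 in males (edgeR adjusted p = 0.303), opposite in sign to most of the 9 genes. Ifi27 had 0.62 ± 0.29 (edgeR adjusted p = 0.322) and Trim30a had -0.18 ± 0.29 (0.795). Of the genes linked to interferon gamma, Gbp7 and Gbp3 had -0.10 ± 0.26 and 0.00 ± 0.29 over all cells, and the immunoproteasome subunit Psmb8 had 0.37 ± 0.28 over all cells and 1.34 ± 0.44 in endothelial-like cells (edgeR adjusted p = 0.202).

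The genes whose levels in microglia-like cells followed the summed 9 genes most closely over the 14 libraries, among 5865 genes at a mean of 20 CPM or more, were mostly ribosomal protein and mitochondrial genes. By Pearson's r of log2(CPM + 1), given as a description over libraries that share depth and handling, these were Rps26 (0.917), Rps26-ps1 (0.914), H2-D1 (0.905), mt-Nd1 (0.904), mt-Cytb (0.902), Rpl34 (0.901), Rpl39-ps (0.898), Ppp2r1a (0.893), Mid1ip1 (0.891) and mt-Nd2 (0.891). Each of these genes had a higher mean in THY-Tau22 males than in WT males, described without a test. They were picked for following a sum that was itself apart in males, so this direction was largely set by the choice and adds no result. Rps26 was at 294 CPM in WT males and 828 CPM in THY-Tau22 males, and mt-Cytb at 655 and 1890 CPM. H2-D1, an MHC class I heavy chain, was at 267 and 922 CPM.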

How the data were processed

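The authors' deposited files hold UMI counts per gene and barcode, 3000 barcodes a library, from Drop-seq of dissociated cortex, on mm10 per the submitters' processing notes. The aligner is not given in the sources used here. No count was normalized before deposit. Barcodes with 200 to 7000 genes were kept without a mitochondrial limit. Cells were clustered with scanpy 1.11.5 (2500 variable genes, 19 components, 20 neighbours) and leidenalg 0.10.2 at resolution 0.5, and a cluster was named "-like" from at least 3 detected markers. Scrublet marked 1473 cells (5.16%) as doublets, which were kept, and removed in an alternative. Names were rebuilt here and can differ from the study's.

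UMIs were summed per library and class (at least 10 cells) and tested with edgeR 4.0.16 in R 4.3.3 (TMM, filterByExpr, quasi-likelihood, 1 mean per group, 14 libraries, 7 levels, 4 contrasts), adjusted over all genes of a level. The study's test on single cells was not used, since cells are not replicates. The p-values measure the spread between libraries, each taken as 1 mouse. On simulated data for microglia-like cells of males (4840 genes), 83.3% of 192 changed genes were called, with 5 false calls. The median estimate of the raised genes there was 2.08, so the share does not cover smaller differences or other levels. DESeq2 1.42.0, RLE factors, no filter, a 5% mitochondrial limit, doublet removal, classes by marker UMIs, other treatments of the shared library and leaving out each library were the alternatives. A count of 0 allows up to 3 counts, and intervals cover counting error only. The named genes were the 9 listed genes, up to 3 genes per role of the pathway list by mean CPM and any called, and the 10 genes most correlated with the sum. Genes and lists were chosen with earlier results of these data known. One further marker list is not reported here.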

Additional observations from a re-analysis of the deposited data

Results flagged for a closer look

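Of 23 sets of values looked at (a gene at a level in the 5 THY-Tau22 females), 4 had 1 library farther from the rest than Dixon's 95% critical value of 0.71 for 5 samples, where chance gives about 1 in 20. Over all cells, Isg15 was at 71.8 CPM in THY-Tau22 female replicate 1 (110 UMIs) and at 48.2 to 53.1 CPM in the other 4, a gap of 0.792 of the range. In the same library Irf7 was at 13.7 CPM (21 UMIs), against 3.49 to 5.77 CPM (0.777). In endothelial-like cells, Rtp4 was at 110.0 CPM in THY-Tau22 female replicate 4, against 38.6 to 56.5 CPM (0.749), and Ifi27l2a was at 55.1 CPM there, against 10.8 to 21.3 CPM (0.763). The last pair rests on 10 and 5 UMIs in a library of 152 endothelial-like cells.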

How the results depend on the processing

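No paired analysis was possible because replicate numbers were given here in accession order and pair no mice. With no filter on low counts, 3 members were called in males over all cells (Ifi27l2a 2.67, Bst2 1.20 and Ifitm3 0.93, where 1.03% of genes were called), 1 in both sexes (Ifi27l2a 1.43, 0.167%) and 1 in the interaction (Ifi27l2a 2.47, 0.632%). Leaving out 1 library gave 0 to 3 calls in males, 0 to 8 in the interaction and 0 otherwise, and each library other than WT female replicate 3 gave 0. Without the MB22 libraries, added after the data were seen, males had 3 calls and the interaction 8. The other alternatives gave 0 calls, and the cause of these changes was not tested. Of 567 log2 fold changes under alternatives that left out no single library, 3 changed sign: Ifit1 over all cells was 0.11 in females without the MB22 libraries and 0.05 in the interaction with all 16 libraries as labelled, and Ifi27l2a was -0.26 in females without the MB22 libraries. Leaving out 1 library changed the sign of 21 of 783 values, in 14 of 57 results. Over all cells, Ifit1 ranged from -0.89 to 0.00 in males, from -0.41 to 0.13 in females and from -0.67 to 0.22 in the interaction, and in females Isg15 ranged from -0.34 to 0.17, Bst2 from -0.49 to 0.13, Ifi27l2a from -0.46 to 0.76 and Ifitm3 from -0.72 to 0.01. In endothelial-like cells, Ifit1 ranged from -0.50 to 0.10 in males and from -0.07 to 0.65 in females, and in females Isg15 from -0.46 to 0.17, Rtp4 from -0.95 to 0.10 and Ifitm3 from -0.61 to 0.19. Ifitm3 ranged from -0.33 to 1.19 in microglia-like cells of females and from -0.49 to 1.38 in astrocyte-like cells of males. With classes by marker UMIs per cell, the mural-like class shrank from 942 to 388 cells and its means of Irf7 and Ifi27l2a were 5.22 and 2.97 CPM. Thinned to 300 UMIs a cell, with cells of fewer UMIs left out, the share with 3 or more members was 0.0889% of all, 0.401% of endothelial-like and 0.0426% of microglia-like cells. Depth limits the class levels: 1 UMI was worth 0.479 to 1.32 CPM over all cells, 3.18 to 11.0 CPM in endothelial-like and 2.13 to 6.96 CPM in microglia-like cells.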
